A study of Homo sapiens with 9 samples.

Results

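The expression of 16251 genes was compared between SKOV3 cells treated with carboplatin and control SKOV3 cells, in 6 RNA sequencing libraries labelled control 1 to 3 and Carbo 1 to 3. Each Carbo library was set against the control library of the same number, so that the comparison rests on 3 pairs. The genes are those with at least 10 counts in 3 or more of the 6 libraries, out of 32378 in the deposited table, and the series holds 9 libraries, of which the 3 with Carbo and COM33 were not used here. SKOV3 is an established human ovarian cancer line with an amplified ERBB2 gene. All 6 libraries come from this single line, grown in RPMI 1640 medium with fetal bovine serum and penicillin-streptomycin, and the label Carbo was read as carboplatin from the title of the series. The labels give neither a dose nor a time of treatment, and do not say whether the control received a vehicle. They also do not say what the replicate numbers mark (separate cultures or something else). The p-values therefore measure only the spread between these libraries, which may be technical. The title of the series asks about the epithelial-mesenchymal transition (EMT) and ERK signalling under carboplatin.

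Carboplatin is a platinum drug that binds guanine bases and ties them to neighbouring bases in the same or the opposite DNA strand. Links within a strand are cut out by nucleotide excision repair or bypassed by translesion polymerases, whereas links between strands stall the replication fork and are undone by the Fanconi pathway together with homologous recombination. Cells with such lesions are known to halt in S phase or at the entry into mitosis, and genes of these stages are switched on through promoter elements: E2F sites at the start of S phase (replication genes), and the CHR and CCAAT boxes in G2 (division genes).

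Total counts per library ran from 14360199 to 15533668, and the genes tested held 99.8% of them. The line kept its known profile in each library: ERBB2 stood at 218 to 245 FPKM (fragment counts scaled by transcript length and library depth) and PAX8, a factor of the Müllerian lineage, at 38.0 to 64.6 FPKM, while MUC16, which encodes the CA125 antigen, was at most 0.0646 FPKM. Markers of blood, endothelium and fibroblasts had at most 15 counts in any library, among them PTPRC, PECAM1 and PDGFRA, and CD68 had 0 counts in all 6. No 2 libraries of a group were the same library deposited again, because the chi-square statistic per gene between libraries of a group was at least 3.37, where 1 stands for counting noise alone.

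Carbo and control libraries differed in many genes by small amounts. Of the 16251 genes, 3760 (23.1%) were called, meaning an adjusted p under 0.05 in edgeR's quasi-likelihood test with the replicate number as a block; 1852 (11.4%) rose and 1908 (11.7%) fell. The median absolute log2 fold change of the called genes was 0.29. A log2 fold change of at least 0.5 in size was reached by 604 called genes (3.72% of those tested), 246 of them higher and 358 lower in Carbo, and a change of at least 1 by 83. The sign was the same in all 3 pairs for 3695 of the 3760 called genes, against 53% of all genes. The 3 Carbo values lay wholly above or wholly below the 3 control values for 3661 genes (22.5% of all), and 2159 of these were among the called genes.

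The call depends on the pairing and on the libraries in the fit. Without the block, 0 genes were called by the same test in the same 6 libraries, with a lowest adjusted p of 0.143, although 2789 genes (17.2%) had an unadjusted p under 0.05 and each of the 3760 genes kept its direction. With the block over all 9 libraries of the series, which then share one estimate of the spread, 0 genes were called as well (lowest adjusted p 0.198), although 3031 genes (18.7%) had an unadjusted p under 0.05. DESeq2 with the block in the 6 libraries called 1937 genes. Without Carbo 1, the test without the block called 1502 genes. The blocked test called 4299 genes without pair 1 (26.5%; 12.8% higher and 13.6% lower), 1324 without pair 2 (8.15%; 3.54% and 4.61%) and 2925 without pair 3 (18.0%; 8.5% and 9.49%), and 1193 of the 3760 were called under each of these 3 omissions, 510 higher and 683 lower in Carbo. A left-out pair gives values that did not enter the fit of the other pairs. Of the genes called without pair 1, 88.9% had the same sign in pair 1, against 68.6% of all genes; for pair 2 the shares were 98.9% and 73.0%, and for pair 3 95.8% and 71.6%. The pairs share the treatment, the depth and any step handled by group, so these shares do not tell such sources apart.

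Most of the variance between libraries lay along an axis that held both the replicate number and the treatment. Over 6645 genes above a mean log2 CPM of 5, the replicate number took 53.1% of the sum of squares, the group 38.6% and the rest 8.26%. The first principal component held 71.8% of the variance. Control 1 had a score of 16.4 on it, Carbo 1 6.42, control 2 5.45, control 3 0.084, Carbo 2 -9.72 and Carbo 3 -18.7. Each Carbo library stood lower on this component than its own control, while Carbo 1 stood higher than control 2 and control 3. Once group means were subtracted, the 2 libraries of a number correlated over these genes at 0.824 (number 1), 0.566 (number 2) and 0.748 (number 3). No p is given, since the genes of a library depend on each other.

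**Figure D1:**
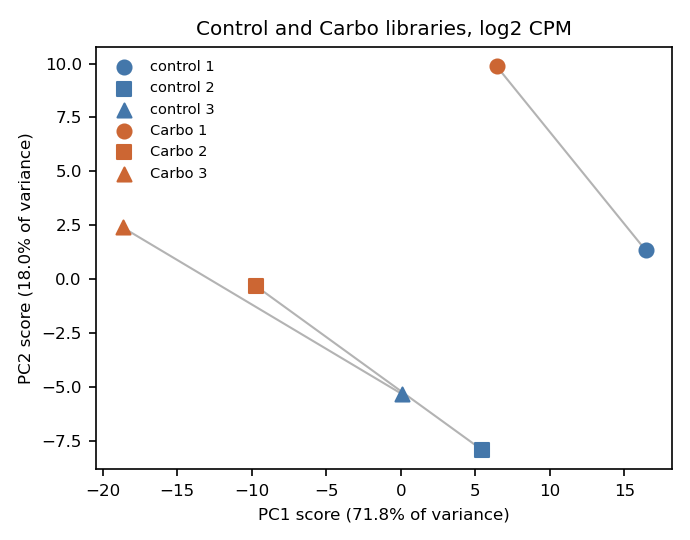
Scores of the 3 control (blue) and 3 Carbo (orange) libraries on the first principal component (x axis, 71.8% of variance) and the second (y axis, 18.0%) of log2 CPM, with a grey line joining the libraries of the same number. All 3 lines run from a control at the right to a Carbo library at the left and above, and Carbo 1 (6.42) lies to the right of control 2 (5.45) and control 3 (0.084).

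Genes of cell division rose in the Carbo libraries. The 6 lists cover kinetochores, mitotic kinases and the spindle checkpoint, kinesins and cytokinesis, the anaphase-promoting complex, condensin and cohesin, and centrosomal CEP proteins. Of their 169 tested genes, 109 rose (64.5%, against 11.4% of all genes) and 6 fell (3.55%, against 11.7%), with a median log2 fold change of 0.35, against -0.0017 over all genes. These genes together took 1.02%, 1.03% and 1.10% of all counts in control 1 to 3 and 1.13%, 1.29% and 1.45% in Carbo 1 to 3. The lowest Carbo share was above the highest control share. By pair the median log2 ratio of these genes was 0.21, 0.36 and 0.47 for pairs 1, 2 and 3. The median difference of these genes between replicate 3 and replicate 1, averaged over both groups, was 0.27 on the log2 scale. That average includes the Carbo libraries, so a Carbo ratio that grows from pair 1 to pair 3 adds to it.

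Promoters of the division genes are shown because the letters of 2 late cell cycle elements recur in them. The CHR is spelled TTTGAA and the CCAAT box CCAAT, each searched on both strands in the 250 bases before the start of transcription in RefSeq (GRCh38.p14), where 10935 of the tested genes had a window. A CHR stood in 35 of the 91 windows of division genes that rose (38.5%), against 8.38% of all tested genes with a window, 13.5% of all genes that rose and 3.75% of all that fell. A CCAAT box stood in 53 of the 91 (58.2%), against 34.5%, and both in 28 (30.8%), against 3.37%. Over the 144 windows of all tested division genes, called or not, the shares were 30.6%, 59.0% and 24.3%. Over all 27305 RefSeq promoters the shares were 13.6% for the CHR, 33.0% for the CCAAT box and 4.85% for both. The 4 genes below are those with the lowest p among division genes that rose and whose nearest 160 bases hold both elements. The sequences run 5′ to 3′ along the gene's strand up to the base before the RefSeq start, with the CHR and CCAAT letters, on either strand, in capitals. The gene bounds given below come from another annotation (GENCODE 29). By those bounds part of the printed windows of ASPM, KIF18A and ECT2 lies inside the gene.
ASPM (chr1:197146670-197146829, minus strand): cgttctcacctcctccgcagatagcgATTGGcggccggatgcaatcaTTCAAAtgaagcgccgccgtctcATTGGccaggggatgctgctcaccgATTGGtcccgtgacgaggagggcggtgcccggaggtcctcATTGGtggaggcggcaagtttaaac
KIF18A (chr11:28108157-28108316, minus strand): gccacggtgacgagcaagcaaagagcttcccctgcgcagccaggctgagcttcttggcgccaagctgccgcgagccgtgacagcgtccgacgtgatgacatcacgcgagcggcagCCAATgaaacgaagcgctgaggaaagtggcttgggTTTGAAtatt
CEP55 (chr10:93496452-93496611, plus strand): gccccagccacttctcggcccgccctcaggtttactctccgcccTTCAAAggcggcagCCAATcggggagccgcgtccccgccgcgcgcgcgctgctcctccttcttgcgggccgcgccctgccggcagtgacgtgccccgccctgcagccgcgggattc
ECT2 (chr3:172750566-172750725, plus strand): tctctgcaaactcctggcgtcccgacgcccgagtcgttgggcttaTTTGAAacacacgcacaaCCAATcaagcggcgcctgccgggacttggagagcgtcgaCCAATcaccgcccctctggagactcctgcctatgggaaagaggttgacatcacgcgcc
ASPM holds 4 CCAAT boxes and 1 CHR in its window, ECT2 2 and 1, and KIF18A and CEP55 1 of each. A match is a description of letters and does not show that a factor binds there.

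These 4 genes act at the spindle and in the cut between daughter cells. ASPM, which focuses the poles of the mitotic spindle (ENSG00000066279, chromosome 1, 197084128 to 197146694 on GRCh38), was at 58.7, 50.8 and 66.9 CPM in control 1 to 3 and 82.6, 97.8 and 120.4 CPM in Carbo 1 to 3. The groups did not overlap, and each Carbo library was above its control (log2 fold change 0.76, SE 0.072, adjusted p = 2.44e-06). KIF18A, a kinesin that trims microtubule ends at kinetochores (ENSG00000121621, chromosome 11, 28020620 to 28108308), was at 22.3, 26.8 and 31.0 CPM in control 1 to 3 and 33.6, 46.0 and 66.9 CPM in Carbo 1 to 3. Its lowest Carbo value exceeded its highest control value (log2 fold change 0.84, SE 0.088, adjusted p = 6.80e-06). CEP55, which recruits the machinery of abscission to the midbody (ENSG00000138180, chromosome 10, 93496632 to 93529092), was at 40.9, 43.2 and 50.9 CPM in control 1 to 3 and 54.5, 72.3 and 86.9 CPM in Carbo 1 to 3. Again the groups were apart (log2 fold change 0.65, SE 0.072, adjusted p = 1.10e-05). ECT2, which switches on RhoA for the cleavage furrow (ENSG00000114346, chromosome 3, 172750682 to 172821474) and was picked for its promoter after values were seen, was at 118, 129 and 149 CPM in control 1 to 3 and 147, 188 and 226 CPM in Carbo 1 to 3. Carbo 1 fell just short of control 3, so its groups overlapped, although each pair moved the same way (log2 fold change 0.49, SE 0.055, adjusted p = 1.29e-05).

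Kinesins, spindle assembly factors and cytokinesis genes had the highest median of the division lists. Of 31 tested, 26 rose and 0 fell, with a median log2 fold change of 0.54 and pair medians of 0.28, 0.51 and 0.74. ANLN, the anillin scaffold of the contractile ring, was at 81.4, 83.3 and 96.4 CPM in control 1 to 3 and 111, 138 and 199 CPM in Carbo 1 to 3. Carbo was higher in every pair, with no overlap (log2 fold change 0.75, SE 0.077, adjusted p = 5.83e-06). CIT, the citron kinase of the midbody, rose by a log2 fold change of 0.63 (adjusted p = 5.68e-06). KIF11, the motor that pushes spindle poles apart, rose by 0.44 (adjusted p = 0.00181).

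Kinetochore and centromere genes rose in 21 of 33 cases, with 0 falling and a median of 0.44. CENPF, a kinetochore protein that builds up in G2 (ENSG00000117724, chromosome 1, 214603195 to 214664588), was at 123, 127 and 145 CPM in control 1 to 3 and 164, 213 and 271 CPM in Carbo 1 to 3. All Carbo values were above all control values (log2 fold change 0.70, SE 0.068, adjusted p = 3.43e-06). CENPU, part of the inner kinetochore (ENSG00000151725, chromosome 4, 184694618 to 184734133), was at 8.87, 15.1 and 20.3 CPM in control 1 to 3 and 15.8, 29.2 and 43.8 CPM in Carbo 1 to 3. The groups overlapped because both libraries numbered 1 were low, but each Carbo library was above its own control, with log2 ratios of 0.83, 0.95 and 1.11 (log2 fold change 0.99, SE 0.094, adjusted p = 2.80e-06). SPDL1, which brings dynein to kinetochores, rose by 0.62, and SKA3, of the complex that holds microtubule ends, by 0.53.

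Mitotic kinases, cyclins and checkpoint genes rose in 22 of 30 cases, with a median of 0.41. TTK, the kinase that starts the spindle checkpoint, was at 37.2, 36.3 and 38.6 CPM in control 1 to 3 and 52.6, 61.9 and 75.5 CPM in Carbo 1 to 3. No Carbo value reached down to the control range (log2 fold change 0.75, SE 0.079, adjusted p = 6.80e-06). NEK2, a kinase that separates centrosomes, was at 10.5, 12.4 and 13.5 CPM in control 1 to 3 and 18.1, 20.2 and 27.3 CPM in Carbo 1 to 3. Its groups did not overlap either (log2 fold change 0.84, SE 0.10, adjusted p = 3.33e-05). CCNB1, the cyclin B1 of mitotic entry, rose by 0.51 (adjusted p = 2.01e-05), its kinase CDK1 by 0.44 (adjusted p = 6.52e-04) and PLK1, the polo kinase, by 0.37 (adjusted p = 4.59e-04). SGO1, which protects cohesion at centromeres, rose by 0.82 from a low level (4.05, 5.57 and 7.10 CPM in control 1 to 3 and 8.77, 8.20 and 12.6 CPM in Carbo 1 to 3). The exception was MAD1L1, a checkpoint scaffold, which had a log2 fold change of -0.32 and fell (adjusted p = 0.00524); it was picked here after its value was seen, and once GC and length trends had been taken out it was at -0.11 (adjusted p = 0.368).

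Condensin and cohesin genes rose in 18 of 21 cases, with 0 falling, and the 3 others also had a positive fold change. TOP2A, the topoisomerase that disentangles sister chromatids (ENSG00000131747, chromosome 17, 40388516 to 40417950), was at 232, 226 and 255 CPM in control 1 to 3 and 289, 394 and 489 CPM in Carbo 1 to 3. Control values were close together and Carbo values spread widely above them (log2 fold change 0.69, SE 0.078, adjusted p = 1.35e-05). SMC2, a core subunit of condensin, was at 86.6, 96.4 and 117 CPM in control 1 to 3 and 120.2, 145 and 189.7 CPM in Carbo 1 to 3. Carbo 1 was only just above control 3 (log2 fold change 0.59, SE 0.053, adjusted p = 2.06e-06). SMC4, its partner, rose by 0.54 and RAD21, the cleavable ring subunit of cohesin, by 0.35. The structural centrosome proteins named CEP rose in 17 of 34 cases and fell in 4 (CEP250, CEP131, CEP164 and CEP170B); CEP152, which starts centriole duplication, rose by 0.74 and CEP135, of the centriole cartwheel, by 0.62.

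The anaphase-promoting complex and its partners had the lowest median of the division lists, with 6 of 21 rising, 1 falling (ANAPC11, its RING subunit, at -0.21) and a median of 0.12. FBXO5, the inhibitor that holds the complex back until mitosis, rose by 0.55, PTTG1, the securin, by 0.44, and UBE2C, the ubiquitin-conjugating enzyme of the complex, by 0.32. UBE2C has 5 annotated pseudogenes, so its counts are uncertain. Most core subunits were not called.

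Division genes were called mostly upward in 2 refits with the block. With the trend of each library with GC content and length removed, 97 of the 169 rose and 3 fell, where 5.38% and 5.35% of all genes did. With pair 2 left out, 84 rose and 2 fell, against 3.54% and 4.61% of all genes. Without the block 0 of them were called, and with the block over all 9 libraries of the series 0 were called either. ASPM, KIF18A, CEP55, ECT2, CENPF, CENPU, TOP2A, TTK, NEK2, ANLN and SMC2 each kept the call whichever pair was dropped, and in the corrected fit as well.

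**Figure D2:**
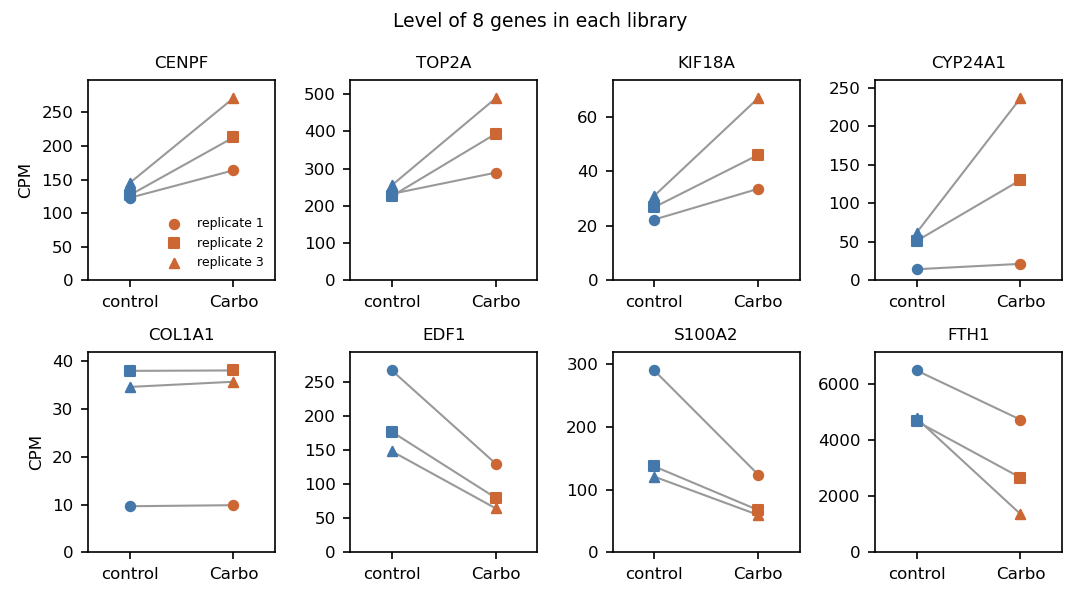
Level in CPM (y axis, from 0) of 8 genes in each control (blue) and Carbo (orange) library, with a grey line for each same-numbered pair and 1 symbol per replicate number. CENPF, TOP2A, KIF18A and CYP24A1 lie higher in Carbo in each pair, EDF1, S100A2 and FTH1 lie lower in each pair, and COL1A1 follows the replicate number with level lines.

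Genes that copy DNA rose as well. The 5 lists hold the replication origin and helicase, polymerases and fork, nucleotide synthesis, E2F, RB and DREAM regulators, and G1 cyclins with their kinases and inhibitors; of 117 tested genes 64 rose (54.7%) and 3 fell (2.56%), with a median of 0.29 and pair medians of 0.14, 0.27 and 0.33. The origin and helicase list had 25 of 31 rising and 0 falling. MCM4, a subunit of the replicative helicase, was at 44.5, 57.1 and 58.5 CPM in control 1 to 3 and 68.8, 75.6 and 102 CPM in Carbo 1 to 3. Its groups did not overlap (log2 fold change 0.61, SE 0.070, adjusted p = 1.45e-05). MCM10, which activates the helicase, was at 8.66, 10.9 and 11.4 CPM in control 1 to 3 and 11.8, 17.1 and 21.4 CPM in Carbo 1 to 3. Here too Carbo lay wholly above control (log2 fold change 0.68, SE 0.12, adjusted p = 5.81e-04). GINS1, of the helicase's GINS complex, rose by 0.43, and the 6 subunits MCM2 to MCM7 all rose, from 0.33 for MCM6 to 0.61 for MCM4.

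Polymerase and fork genes rose in 16 of 29 cases, with 0 falling. POLA1, the catalytic subunit of the priming polymerase, was at 16.6, 21.1 and 24.1 CPM in control 1 to 3 and 23.3, 31.2 and 37.5 CPM in Carbo 1 to 3. Carbo 1 lay within the control range while Carbo 2 and 3 lay above it (log2 fold change 0.57, SE 0.084, adjusted p = 1.46e-04). RFC3, of the clamp loader, rose by 0.62, DNA2, a nuclease at the fork, by 0.58, and PCNA, the sliding clamp, by 0.38. Of the enzymes that make nucleotides 10 of 22 rose and 1 fell (IMPDH1, of guanine nucleotide synthesis, -0.26). RRM1, the large subunit of ribonucleotide reductase, was at 35.1, 48.4 and 55.4 CPM in control 1 to 3 and 49.3, 68.0 and 90.1 CPM in Carbo 1 to 3. Carbo 1 was again inside the control range (log2 fold change 0.57, SE 0.066, adjusted p = 1.81e-05). TK1, thymidine kinase, rose by 0.57 (adjusted p = 8.89e-04). TYMS, thymidylate synthase, rose by 0.74; it overlaps ENOSF1 on the opposite strand, so its counts are uncertain.

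Of the E2F, RB and DREAM regulators 10 of 19 rose and 0 fell. E2F1, a factor of S-phase entry, was at 21.2, 26.9 and 27.2 CPM in control 1 to 3 and 24.8, 42.0 and 49.2 CPM in Carbo 1 to 3. Carbo 1 was below control 2 and 3, and each pair rose (log2 fold change 0.60, SE 0.097, adjusted p = 3.33e-04). RB1, the retinoblastoma protein that restrains E2F, rose by 0.44 (adjusted p = 1.95e-05), and MYBL2, the B-MYB subunit that turns the repressor DREAM into an activator, by 0.28 (adjusted p = 9.07e-04). FOXM1, which drives division genes through the CHR complex, rose by 0.34 (adjusted p = 0.00199). Among the G1 genes CDK6, CDK2 and CKS1B rose by 0.43, 0.36 and 0.29, while CDK4 fell by 0.27 and CDKN1A, the p21 inhibitor, by 0.39 on the log2 scale. E2F sites, spelled TTTGGCGC, TTTCCCGC, TTTGCCGC or TTTCGCGC and searched on both strands, stood in 13 of 54 promoter windows of replication genes that rose (24.1%) and in 21 of 95 windows of all tested replication genes (22.1%), called or not, against 4.39% of all tested genes with a window and 2.79% of all RefSeq promoters. With GC content and length corrected, 50 of the 117 replication genes rose and 1 fell, and without pair 2 34 rose and 3 fell.

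Genes of crosslink repair and homologous recombination rose, and few genes of nucleotide excision repair were called. In the Fanconi list 12 of 24 genes rose and 1 fell (FAAP100, -0.21), with a median of 0.25, and in the list of homologous recombination and end resection 15 of 22 rose and 0 fell, with a median of 0.43. BRIP1, the helicase that works with BRCA1 (ENSG00000136492, chromosome 17, 61681266 to 61863521), was at 11.9, 15.4 and 17.7 CPM in control 1 to 3 and 16.9, 29.6 and 35.6 CPM in Carbo 1 to 3. Carbo 1 lay within the control range, below control 3, and the other Carbo values far above it (log2 fold change 0.84, SE 0.10, adjusted p = 3.09e-05). BRCA2, which loads the recombinase onto single-stranded DNA, was at 32.0, 28.8 and 35.8 CPM in control 1 to 3 and 43.8, 48.0 and 55.2 CPM in Carbo 1 to 3. Its groups did not overlap (log2 fold change 0.60, SE 0.074, adjusted p = 3.18e-05). FANCI, which with FANCD2 carries the ubiquitin signal at a crosslink, was at 47.3, 64.6 and 73.0 CPM in control 1 to 3 and 66.4, 90.0 and 115 CPM in Carbo 1 to 3. Carbo 1 fell between control 2 and control 3 (log2 fold change 0.54, SE 0.059, adjusted p = 9.02e-06).

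FANCB, of the ubiquitin ligase core, rose by 0.95 from a low level, at 4.26, 2.62 and 5.58 CPM in control 1 to 3 and 7.28, 7.37 and 9.06 CPM in Carbo 1 to 3. BRCA1, which steers broken ends into recombination, rose by 0.45, RBBP8 (CtIP), which starts the resection of ends, by 0.43, and BLM, which dissolves joined DNA molecules, by 0.55. POLQ, the polymerase of microhomology-mediated joining, rose by 0.42 and XRCC2, a recombinase paralogue, by 0.76. Of the 12 genes of translesion synthesis, 7 rose and 0 fell; RAD18, the ligase that marks the clamp for bypass, was highest at 0.52, and with GC content and length corrected 2 of the 12 were called.

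Nucleotide excision repair had 1 called gene of 18, CETN2 (centrin 2, of the damage sensor), at 0.27, and a median of 0.023. ERCC1, of the nuclease that cuts beside platinum adducts, was not called although its groups did not overlap (38.3, 39.1 and 37.4 CPM in control 1 to 3 and 35.7, 34.9 and 35.5 CPM in Carbo 1 to 3; log2 fold change -0.11, SE 0.072, adjusted p = 0.28). Mismatch and base excision repair had 3 genes rising (NEIL3, MLH3 and MSH6) and 2 falling (NEIL1 and NEIL2) of 20. These shares (15% and 10%) were near those of all genes (11.4% and 11.7%). The glycosylase NEIL3, which also opens crosslinks, rose by 0.55, while its relative NEIL1 fell by 0.50 on the log2 scale. In damage signalling and end joining 7 of 19 rose, among them TOPBP1, which activates ATR (0.42), CHEK1, the checkpoint kinase downstream (0.36), and PRKDC, the catalytic subunit of DNA-PK (0.21); PAXX, an end-joining factor, fell (-0.31). Over all 6 repair lists 45 of 115 genes rose and 4 fell, 29 were higher and 3 lower in the GC-corrected fit, and 22 rose and 1 fell without pair 2.

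**Figure D3:**
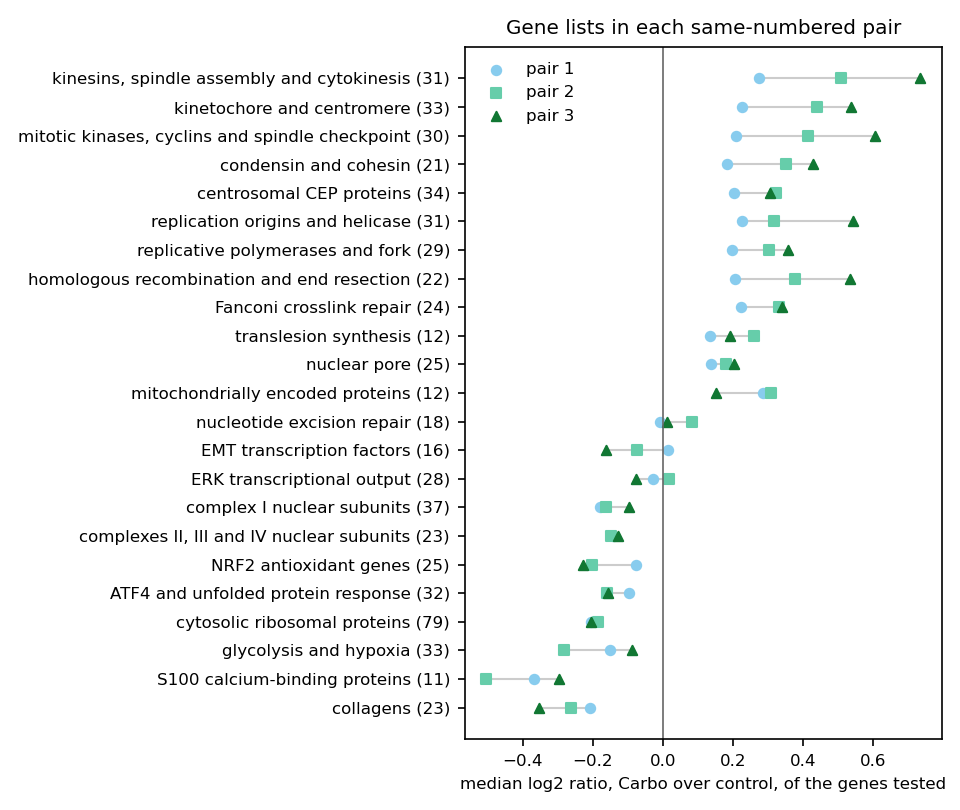
Median log2 ratio of Carbo over control (x axis) of the tested genes of 23 gene lists (y axis, number of genes in brackets) in pair 1 (light circle), pair 2 (square) and pair 3 (dark triangle). Kinesins, kinetochore genes and mitotic kinases lie right of 0 in every pair, with pair 1 lowest and pair 3 highest, while S100 genes, collagens and ribosomal proteins lie left of 0 in all 3 pairs.

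In a list of genes of growth arrest and cell death that DNA damage is known to induce, falls outnumbered rises. Of 30 tested, 1 rose (PLK2, a polo-like kinase, 0.30) and 8 fell, with a median of -0.040. These shares were 3.33% and 26.7%, against 11.4% and 11.7% of all genes. CDKN1A, which halts the cell cycle, was at 213, 158 and 147 CPM in control 1 to 3 and 164, 127 and 105 CPM in Carbo 1 to 3. The highest Carbo value lay above control 2 and 3, and each Carbo library was below its own control (log2 fold change -0.39, SE 0.050, adjusted p = 4.72e-05). PHLDA3, an inhibitor of AKT, was at 70.8, 59.1 and 54.7 CPM in control 1 to 3 and 45.7, 38.0 and 32.6 CPM in Carbo 1 to 3. Its groups did not overlap (log2 fold change -0.67, SE 0.065, adjusted p = 3.43e-06). GADD45A, a stress sensor, fell by 0.34, BAX, a pore-forming death protein, by 0.41, and TNFRSF10B, a death receptor for TRAIL, by 0.32 on the log2 scale. Of the BCL2 family and caspases 8 of 28 fell, among them the killers BAK1 (-0.45) and BBC3 (-0.50) as well as the protector BCL2L1 (-0.33), and 4 rose: BIRC3 and BIRC2, inhibitors of apoptosis, and the caspases CASP2 and CASP8. The shares of this second list were 14.3% rising and 28.6% falling. In the GC-corrected fit the first list had 1 rise and 4 falls and the second 2 and 7.

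Called genes of stress responses mostly fell in Carbo. In the list of ATF4 and the unfolded protein response 16 of 32 fell and 2 rose (HSP90B1 and PDIA4, chaperones of the endoplasmic reticulum), with a median of -0.16. These shares were 50% and 6.25%, where 11.7% of all genes fell and 11.4% rose. DDIT4, an inhibitor of mTORC1, was at 295, 229 and 199 CPM in control 1 to 3 and 183, 129 and 83.9 CPM in Carbo 1 to 3. All Carbo values were under all control values (log2 fold change -0.91, SE 0.073, adjusted p = 5.63e-07). PPP1R15A, which ends the stress block on translation, was at 594, 400.2 and 366 CPM in control 1 to 3 and 415, 273 and 223 CPM in Carbo 1 to 3. Carbo 1 lay above control 2 and 3 (log2 fold change -0.59, SE 0.048, adjusted p = 6.40e-07). ATF4 itself fell by 0.20 and its target DDIT3 (CHOP) by 0.30 on the log2 scale. In the GC-corrected fit 10 genes fell, and without pair 2 8 fell.

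Antioxidant genes under NRF2 fell in 11 of 25 cases (44%, against 11.7% of all genes), with a median of -0.16. They fell in 7 cases after the correction or without pair 2. FTH1, the ferritin heavy chain that stores iron (ENSG00000167996, chromosome 11, 61959718 to 61967660), was at 6486, 4677 and 4782 CPM in control 1 to 3 and 4731, 2666 and 1367 CPM in Carbo 1 to 3. Carbo 1 was inside the control range, and pair 3 had the largest drop, with log2 ratios of -0.46, -0.81 and -1.81 (log2 fold change -1.02, SE 0.15, adjusted p = 1.28e-04). FTH1 has 25 annotated pseudogenes, so its counts are uncertain. HMOX1, which breaks down haem, fell by 0.51 and FTL, the ferritin light chain, by 0.40 on the log2 scale, whereas NFE2L2, which encodes NRF2, rose by 0.33 together with the enzyme ME1 (0.17). Heat shock proteins rose in 4 of 20 cases (20%) and fell in 1 (5%, HSPA9), against 11.4% and 11.7% of all genes. After the correction 2 of them rose and 1 fell. Of 5 tested genes in the list of metallothioneins and their factor MTF1, MT2A rose (0.24, adjusted p = 0.0106). Among 21 genes listed under platinum transport and conjugation 2 rose and 2 fell (9.52% each, near the 11.4% and 11.7% of all genes). Those that rose were LRRC8D, a subunit of the volume-regulated channel that admits platinum drugs, and VRK1. VRK1 is a kinase and neither a transporter nor a conjugating enzyme, although the list holds it. Those that fell were ABCC3, an efflux pump, and ATP7B, a copper exporter. SLC31A1, the copper importer CTR1, was not called (log2 fold change -0.074, SE 0.057, adjusted p = 0.395), and neither was GSTP1, a glutathione transferase (log2 fold change -0.044, SE 0.056, adjusted p = 0.633), which after the GC and length correction was at 0.20 (adjusted p = 0.0252).

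Called genes of sugar metabolism mostly fell too. Glycolysis and hypoxia genes fell in 16 of 33 cases and rose in 1, with a median of -0.19. These shares were 48.5% and 3.03%, where 11.7% of all genes fell and 11.4% rose. Without pair 2, 8 fell. SLC16A3, the lactate exporter, was at 627, 614 and 528 CPM in control 1 to 3 and 451, 424 and 296 CPM in Carbo 1 to 3. The groups did not overlap (log2 fold change -0.61, SE 0.057, adjusted p = 2.44e-06). NDRG1, a hypoxia-induced gene, was at 439.6, 299.6 and 254 CPM in control 1 to 3 and 352, 179.5 and 139 CPM in Carbo 1 to 3. Both libraries numbered 1 were high, and Carbo 1 exceeded control 2 and 3 (log2 fold change -0.63, SE 0.072, adjusted p = 1.52e-05). HK2, hexokinase, fell by 0.54 and VEGFA, the angiogenic factor, by 0.44 on the log2 scale. HIF1A, the factor that drives this programme, was the gene that rose (1374, 1717 and 1958 CPM in control 1 to 3 and 1626, 2334 and 2723 CPM in Carbo 1 to 3; log2 fold change 0.39, SE 0.049, adjusted p = 4.39e-05).

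In each list of nuclear genes of the respiratory chain some genes fell and 0 rose. Complex I had 10 of 37 falling (27%), complexes II, III and IV 9 of 23 (39.1%) and ATP synthase 6 of 15 (40%). Of all genes 11.7% fell. The medians were -0.13, -0.14 and -0.10. After the GC and length correction 4, 10 and 5 fell and 1 rose in each list. COX5B, a subunit of cytochrome oxidase, was at 84.9, 73.4 and 65.4 CPM in control 1 to 3 and 54.5, 49.3 and 47.1 CPM in Carbo 1 to 3. Control and Carbo were apart (log2 fold change -0.56, SE 0.061, adjusted p = 9.13e-06). NDUFB3, of complex I, had a log2 fold change of -0.67 and NDUFA1 one of -1.12. Both values are uncertain, as FAM126B and RNF113A overlap them on the opposite strand and NDUFB3 has 1 annotated pseudogene. Protein genes of the mitochondrial genome moved the other way: 9 of 12 rose and 1 fell (MT-ND3), with a median of 0.22 and pair medians of 0.29, 0.31 and 0.15. Without pair 2, 4 rose and 1 fell. MT-ND4, of complex I, was at 3764, 4330.2 and 4733 CPM in control 1 to 3 and 4801, 5686 and 6065 CPM in Carbo 1 to 3. Carbo 1 was just above control 3 (log2 fold change 0.37, SE 0.044, adjusted p = 2.23e-05). MT-CO2, of cytochrome oxidase, was at 2943, 3457 and 3913 CPM in control 1 to 3 and 4105, 4465 and 4356 CPM in Carbo 1 to 3, also without overlap (log2 fold change 0.33, SE 0.054, adjusted p = 3.14e-04). MT-ND3 was at 483, 459 and 499 CPM in control 1 to 3 and 398, 400.1 and 386 CPM in Carbo 1 to 3 and so stood apart in the opposite direction (log2 fold change -0.28, SE 0.046, adjusted p = 3.47e-04).

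Cytosolic ribosomal protein genes fell in 47 of 79 cases (59.5%, against 11.7% of all genes) and rose in 3 (RPS26, RPL4 and RPS6), with a median of -0.18 and pair medians of -0.20, -0.18 and -0.21. Together they took 2.87%, 2.61% and 2.55% of counts in control 1 to 3 and 2.52%, 2.27% and 2.31% in Carbo 1 to 3. RPL8, of the large subunit, was at 781, 624 and 539 CPM in control 1 to 3 and 501, 400.5 and 347 CPM in Carbo 1 to 3, with Carbo wholly below control (log2 fold change -0.64, SE 0.043, adjusted p = 7.53e-08). RPL36 fell by 0.84 and RPS12 by 0.50 on the log2 scale. Many ribosomal protein genes have near-identical pseudogenes (20 by name for RPL36 and 19 for RPS12), so single values are uncertain. After the GC and length correction 37 fell and 5 rose, and without pair 2 28 and 2. Mitochondrial ribosomal proteins fell in 19 of 77 cases (24.7%) and rose in 4 (5.19%), and after the correction 9 fell. Translation factors were split, with 12 rising and 15 falling of 68 (17.6% and 22.1%). Aminoacyl-tRNA synthetases had 2 rising (EPRS and RARS) and 3 falling (AARS, YARS and VARS) of 20. These shares of the synthetases, 10% and 15%, were near those of all genes (11.4% and 11.7%).

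S100 genes, which encode small calcium-binding proteins, fell together: 9 of the 11 tested fell, the other 2 had negative fold changes, and the median was -0.32. S100A2 (ENSG00000196754, chromosome 1, 153561108 to 153567890) was at 289, 137 and 121 CPM in control 1 to 3 and 124, 67.4 and 59.6 CPM in Carbo 1 to 3. Control 1 was far above the other controls, Carbo 1 fell between control 3 and control 2, and each pair dropped by a similar factor, with log2 ratios of -1.22, -1.02 and -1.01 (log2 fold change -1.10, SE 0.055, adjusted p = 1.79e-09). S100A6 was at 1274, 823 and 736 CPM in control 1 to 3 and 740.0, 463 and 391 CPM in Carbo 1 to 3. Here Carbo 1 was level with control 3 (log2 fold change -0.84, SE 0.045, adjusted p = 2.53e-09). The S100 genes have a median GC content of 55.2%, and after the correction for GC content and length 3 of the 11 fell.

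Genes of varied function were among the other large falls at 5 CPM or more. EDF1, a transcriptional coactivator that also senses collided ribosomes (ENSG00000107223, chromosome 9, 136862119 to 136866286), was at 267, 177 and 148 CPM in control 1 to 3 and 130.1, 79.9 and 64.6 CPM in Carbo 1 to 3. All Carbo values lay below all control values, and the drop was close to the same in each pair, with log2 ratios of -1.04, -1.14 and -1.20 (log2 fold change -1.12, SE 0.051, adjusted p = 7.34e-10). TMSB10, an actin-binding thymosin, was at 719, 559 and 431 CPM in control 1 to 3 and 371, 276 and 248 CPM in Carbo 1 to 3. Its groups did not overlap (log2 fold change -0.92, SE 0.049, adjusted p = 2.53e-09). FKBP2, a prolyl isomerase of the endoplasmic reticulum, fell by 0.99, PFDN6, of the prefoldin chaperone, by 0.99, POLR2L, a small shared subunit of RNA polymerases, by 0.93, MAZ, a zinc finger factor, by 0.92, and PABPN1, the nuclear poly(A)-binding protein, by 0.89 on the log2 scale. SERF2 and ZGPAT, with values of -1.03 and -1.06, overlap ELL3 and ARFRP1 on the opposite strand and are uncertain, as are PFDN6 and POLR2L beside WDR46 and CD151.

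The largest rise among genes of at least 5 CPM was in CYP24A1, the hydroxylase that inactivates vitamin D (ENSG00000019186, chromosome 20, 54153449 to 54173973). It was at 14.2, 51.0 and 61.7 CPM in control 1 to 3 and 21.2, 130.3 and 237 CPM in Carbo 1 to 3. Both libraries numbered 1 were low, so the groups overlapped, and the log2 ratio of pair 1, 0.57, was below those of pairs 2 and 3, 1.35 and 1.94 (log2 fold change 1.46, SE 0.13, adjusted p = 2.16e-06). The receptor partners RXRA and RXRB fell (-0.35 and -0.31), and no other gene of this axis was called among 6 tested. ANKRD1, a nuclear target of YAP, rose by 1.03, PDK4, which shuts pyruvate out of the citric acid cycle, by 0.82, and ZNF519, a zinc finger gene, by 0.89. ARL6IP1, a shaper of the endoplasmic reticulum, had the lowest p among genes that rose by at least 0.5 (190.1, 165 and 179.6 CPM in control 1 to 3 and 267, 248 and 283 CPM in Carbo 1 to 3; log2 fold change 0.58, SE 0.048, adjusted p = 8.20e-07). Numbered ZNF genes, mostly repressors with zinc fingers, rose in 80 of 487 cases and fell in 25. These shares were 16.4% and 5.13%, against 11.4% and 11.7% of all genes. In the GC-corrected fit 21 of the 487 were called higher and 7 lower, where 5.38% and 5.35% of all genes were. Their median in that fit was 0.011.

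For EMT, few of its transcription factors were called. Of 16 tested factors 1 rose and 1 fell (TCF3, -0.21), against 23.1% called over all genes, with a median of -0.054. ZEB1, a repressor of E-cadherin, was the one that rose: it was at 93.5, 95.2 and 105 CPM in control 1 to 3 and 102, 121 and 129 CPM in Carbo 1 to 3. Carbo 1 lay within the control range (log2 fold change 0.26, SE 0.055, adjusted p = 0.00238); its adjusted p was 0.102 without pair 2, and after removal of the GC and length trends its log2 fold change was 0.084 (adjusted p = 0.355). TWIST1 was at 9.15, 9.39 and 10.8 CPM in control 1 to 3 and 8.09, 8.52 and 8.78 CPM in Carbo 1 to 3, with lower values in Carbo that were not called (log2 fold change -0.20, SE 0.13, adjusted p = 0.293). SNAI2 was not called (157, 178 and 178 CPM in control 1 to 3 and 158, 205 and 203 CPM in Carbo 1 to 3; log2 fold change 0.13, SE 0.050, adjusted p = 0.0653), nor was ZEB2 (log2 fold change 0.071, SE 0.077, adjusted p = 0.567), and SNAI1 was near 1 CPM or less in every library, too low to place (log2 fold change -0.056, SE 0.47, adjusted p = 0.951). CDH1, which encodes E-cadherin, had too few counts to be tested.

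Mesenchymal and epithelial genes were called in both directions. Of 24 mesenchymal genes 6 rose and 6 fell (25% each, against 11.4% and 11.7% of all genes). After the GC and length correction 3 were called higher and 3 lower. Without pair 2 the list had 1 rising and 2 falling. VIM, the filament protein vimentin, was at 629.6, 699.5 and 721 CPM in control 1 to 3 and 645, 816 and 987 CPM in Carbo 1 to 3. Carbo 1 stood below control 2 and 3, and pair 1 hardly differed (0.035), against 0.22 and 0.45 in the other pairs (log2 fold change 0.24, SE 0.059, adjusted p = 0.00776). Its adjusted p was 0.0903 without pair 2. CDH2, N-cadherin, rose by 0.22 (adjusted p = 0.0107; 0.146 without pair 2) and VCAN, the matrix proteoglycan versican, by 0.63, while TNC, tenascin C, fell by 0.52 and COL5A1, a fibrillar collagen, by 0.46 on the log2 scale. FN1, fibronectin, was not called (512, 846 and 846 CPM in control 1 to 3 and 558, 896 and 880.1 CPM in Carbo 1 to 3; log2 fold change 0.088, SE 0.043, adjusted p = 0.155). Of 28 epithelial genes 4 rose (CD24, TJP1, DSG2 and CLDN1) and 5 fell (CLDN7, PKP3, CRB3, CLDN4 and KRT18), or 14.3% and 17.9%, near the shares of all genes (11.4% and 11.7%). In the GC-corrected fit 6 were called higher and 1 lower. CLDN7, a claudin of tight junctions, was at 57.8, 40.7 and 36.6 CPM in control 1 to 3 and 34.0, 26.6 and 21.96 CPM in Carbo 1 to 3, with Carbo below control throughout (log2 fold change -0.71, SE 0.074, adjusted p = 6.80e-06). KRT18 has 67 annotated pseudogenes and is uncertain.

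Readouts of ERK signalling were called in both directions. Of 28 genes known to follow ERK activity 2 rose (EGR1 and HBEGF) and 4 fell (ETV4, JUNB, LIF and IER2), or 7.14% and 14.3% against 11.4% and 11.7% of all genes, with a median of -0.028. After the GC and length correction 4 were called higher and 2 lower, and without pair 2 0 and 2. DUSP6, the phosphatase that ERK induces against itself, was at 19.8, 22.4 and 24.7 CPM in control 1 to 3 and 22.4, 23.2 and 22.9 CPM in Carbo 1 to 3, and the groups overlapped (log2 fold change 0.038, SE 0.090, adjusted p = 0.811). SPRY4, a feedback inhibitor, gave no call either (36.7, 35.2 and 44.05 CPM in control 1 to 3 and 34.3, 38.1 and 36.6 CPM in Carbo 1 to 3; log2 fold change -0.083, SE 0.080, adjusted p = 0.507). EGR1, an immediate early factor, was at 10.8, 28.8 and 34.7 CPM in control 1 to 3 and 14.01, 44.5 and 43.2 CPM in Carbo 1 to 3. Both libraries numbered 1 were far below the rest, and each pair rose (log2 fold change 0.45, SE 0.087, adjusted p = 0.00129), with an adjusted p of 0.0854 without pair 2. FOS stood at 1.10 to 3.07 CPM and was not called (log2 fold change 0.51, SE 0.35, adjusted p = 0.338). The kinase MAPK3 (-0.051; adjusted p = 0.657), which is ERK1, was not called. Of 28 genes of the cascade 6 rose (21.4%) and 7 fell (25%), among them SOS2, an exchange factor (0.26), and HRAS (-0.38). In the GC-corrected fit 2 of the cascade were called higher and 0 lower.

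TGF-beta genes rose in 9 of 27 cases and fell in 3 (ANGPTL4, SMAD7 and TGFB1). These shares were 33.3% and 11.1%, against 11.4% and 11.7% of all genes. TGFB2, a ligand of the pathway, was at 2.65, 8.25 and 9.93 CPM in control 1 to 3 and 5.10, 14.99 and 20.6 CPM in Carbo 1 to 3. The libraries numbered 1 were low in both groups, and each Carbo library was above its control, with log2 ratios of 0.91, 0.85 and 1.05 (log2 fold change 0.96, SE 0.13, adjusted p = 8.13e-05). SMAD3, a signal carrier, was at 167, 180.1 and 185 CPM in control 1 to 3 and 221, 219 and 214 CPM in Carbo 1 to 3, without overlap (log2 fold change 0.30, SE 0.049, adjusted p = 3.39e-04). ID1, a direct target, rose by 0.38. YAP and TEAD genes rose in 8 of 23 cases and fell in 3 (GADD45A, AXL and AJUBA); THBS1, thrombospondin 1, was at 53.2, 175 and 178 CPM in control 1 to 3 and 59.4, 281 and 393 CPM in Carbo 1 to 3 (log2 fold change 0.72, SE 0.10, adjusted p = 1.29e-04), and CTGF rose by 0.63. THBS1 and CTGF were low in both libraries numbered 1. NF-kB and cytokine genes rose in 9 of 26 cases and fell in 1 (RELB); SOD2, a manganese superoxide dismutase, rose by 0.38 and BIRC3 by 0.51. The shares rising and falling were 34.8% and 13% for YAP and TEAD genes, and 34.6% and 3.85% for NF-kB and cytokine genes. Without pair 2 the rises were 4 of 27 (TGF-beta), 5 of 23 (YAP and TEAD) and 3 of 26 (NF-kB). Interferon-stimulated genes rose in 2 cases, OAS3 among them, and fell in 6 of 30. That is 6.67% rising and 20% falling, where the tested genes as a whole had 11.4% and 11.7%. The excess of falls among called interferon genes was absent from the GC-corrected fit, with 4 higher and 4 lower. Their median log2 fold change was -0.13 before and -0.12 after that correction.

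Of 85 tested matrix genes 7 rose and 17 fell. Of 23 collagens 8 fell and 0 rose, with a median of -0.37 and a median GC content of 61.1%, and in the GC-corrected fit 4 fell. COL18A1, of basement membranes, was at 468, 644 and 569 CPM in control 1 to 3 and 386, 506 and 383 CPM in Carbo 1 to 3; Carbo 2 lay above control 1, and each pair fell (log2 fold change -0.40, SE 0.052, adjusted p = 5.74e-05), while after the correction it was at -0.12 (adjusted p = 0.079). Integrins and laminins had 4 rising and 4 falling of 31 (12.9% each, near the 11.4% and 11.7% of all genes). After the correction 2 rose and 2 fell, and without pair 2 0 and 1. Among them ITGA3, the receptor for laminin 332, was at 3186, 3082 and 2837 CPM in control 1 to 3 and 2712, 2382 and 2048 CPM in Carbo 1 to 3 (log2 fold change -0.36, SE 0.049, adjusted p = 8.05e-05). Of 31 matrix proteases and inhibitors 3 rose, among them MMP7 and TIMP2, and 5 fell, which were the 4 ADAMTS genes ADAMTS7, ADAMTS13, ADAMTS15 and ADAMTS17 with the urokinase PLAU. These shares (9.68% and 16.1%) were near those of all genes (11.4% and 11.7%), and the list had 4 higher and 0 lower after the correction, and 1 and 0 without pair 2.

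Genes of RNA handling differed by list. Nuclear pore genes rose in 13 of 25 cases and fell in 0, with a median of 0.17; NUP107, of the pore's outer ring, rose by 0.38 and TPR, of its basket, by 0.29, while 7 rose after the correction and 3 without pair 2. Hosts of small nucleolar RNAs and nuclear long RNAs fell in 11 of 25 cases and rose in 1 (TUG1). NEAT1, the core of paraspeckles, was at 1786, 1444 and 1398 CPM in control 1 to 3 and 1386, 1100.3 and 1003 CPM in Carbo 1 to 3; Carbo 1 was just under control 3 (log2 fold change -0.41, SE 0.044, adjusted p = 8.17e-06). GAS5, a host of small nucleolar RNAs, fell by 0.32 on the log2 scale. RNA polymerase II subunits had 2 rising (POLR2A and POLR2K) and 5 falling of 12. SR and hnRNP splicing factors had 4 rising and 6 falling of 44 (9.09% and 13.6%), and after the correction 0 rising and 15 falling. Over all genes 11.4% rose and 11.7% fell. Proteasome subunits had 4 rising and 7 falling of 37 (10.8% and 18.9%), and lysosomal genes 5 and 7 of 35 (14.3% and 20%). Cholesterol synthesis had 3 and 4 of 25 (12% and 16%). The value of CYP51A1 in the last list, -1.85, rests on less than 3 CPM and on reads that cannot be told apart from its antisense partner.

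Many genes differed between replicate numbers in the direction in which Carbo differed from control. The test of the replicate number, in the same fit, called 3184 genes (19.6%), and 1591 genes were called for both, which is 42.3% of the Carbo calls and 50% of the replicate calls. Of the genes that rose in Carbo 1614 (87.1%) were higher in replicate 3 than in replicate 1, and of those that fell 269 (14.1%) were, against 49.3% of all genes. Over 8284 genes with at least 20 CPM the log2 fold change of Carbo correlated at 0.64 with the difference between replicate 3 and replicate 1. This difference averages both groups, so a Carbo ratio that grows from pair 1 to pair 3 enters it. The median log2 ratio in pairs 1 to 3 was 0.22, 0.27 and 0.31 for genes called higher. For genes called lower it was -0.26, -0.31 and -0.36. The shares and the correlation are therefore not independent of the Carbo ratios. The difference also holds the control libraries, where the division genes took 1.02%, 1.03% and 1.10% of counts in control 1 to 3. How much each group adds was not tested. The block removes additive differences between numbers, and what the numbers stand for is not given, so the part that such a difference has in the Carbo calls was not tested. COL1A1, the collagen of fibrous tissue (ENSG00000108821, chromosome 17, 50183289 to 50201632), showed a difference by number alone, at 9.64, 37.9 and 34.5 CPM in control 1 to 3 and 9.86, 38.0 and 35.6 CPM in Carbo 1 to 3. Its values of the same number were nearly equal, and libraries numbered 1 were low (log2 fold change 0.025, SE 0.082, adjusted p = 0.866). TGFBI, a matrix protein induced by TGF-beta, followed the same order (315, 792 and 772 CPM in control 1 to 3 and 339, 837 and 824 CPM in Carbo 1 to 3; log2 fold change 0.093, SE 0.043, adjusted p = 0.132). MMP7, a matrix protease, followed the number and also rose in Carbo (3.07, 21.4 and 21.2 CPM in control 1 to 3 and 4.35, 30.0 and 31.2 CPM in Carbo 1 to 3; log2 fold change 0.52, SE 0.10, adjusted p = 0.00126). In TNC the libraries numbered 1 were high in both groups (1008, 495 and 473 CPM in control 1 to 3 and 795, 352 and 282 CPM in Carbo 1 to 3).

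**Figure D4:**
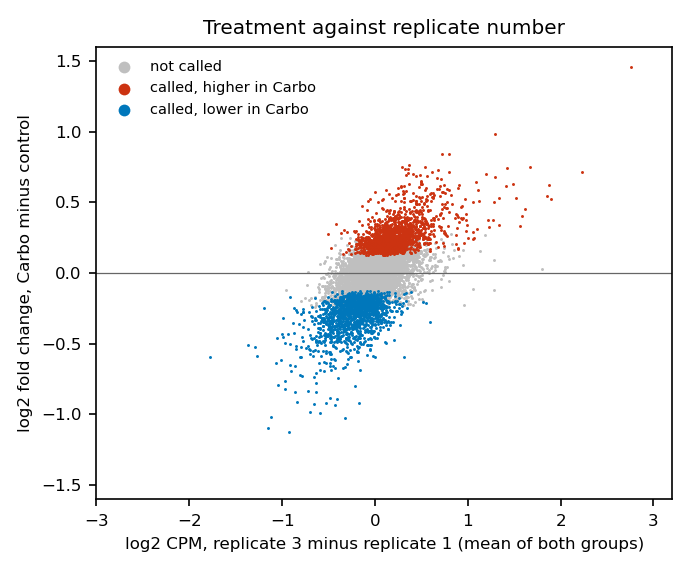
Log2 fold change of Carbo over control (y axis) against the log2 difference between replicate 3 and replicate 1, averaged over both groups (x axis), for 8284 genes with at least 20 CPM; red points rose, blue points fell and grey points were not called. Red points gather at the right and blue points at the left (correlation 0.64), and the point at the top right is CYP24A1.

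The base composition of a transcript also went with its fold change. Of 2570 genes under 40% GC 818 rose and 11 fell, with a median log2 fold change of 0.16, whereas of 2245 genes at 60% GC or more 13 rose and 824 fell, with a median of -0.24. Over the 8284 genes of at least 20 CPM the fold change correlated with GC content at -0.64, and the single pairs at -0.57, -0.60 and -0.58. Short transcripts leaned downward as well: of 1418 under 1000 bases 24 rose and 128 fell, and of 1214 over 8000 bases 318 rose and 98 fell. Chromosomes with GC-rich transcripts had mostly falls, with 66 rising and 258 falling on chromosome 19 and 13 and 82 on chromosome 22, and those with GC-poor transcripts mostly rises, with 97 and 28 on chromosome 4 and 43 and 9 on chromosome 18.

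With the trends of each library removed, 1743 genes (10.7%) were called, 874 higher and 869 lower in Carbo, and 1240 of them were among the 3760 with the same direction. Of these 1240, 747 were also called with each pair left out, 331 higher and 416 lower. Genes under 40% GC then had 117 rising and 113 falling, and genes at 60% GC or more 117 and 134. Division genes have a median GC content of 42.6%, ribosomal proteins 47.9% and S100 genes 55.2%, against 48.3% of all tested genes. The part of base composition in single fold changes was not tested further.

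**Figure D5:**
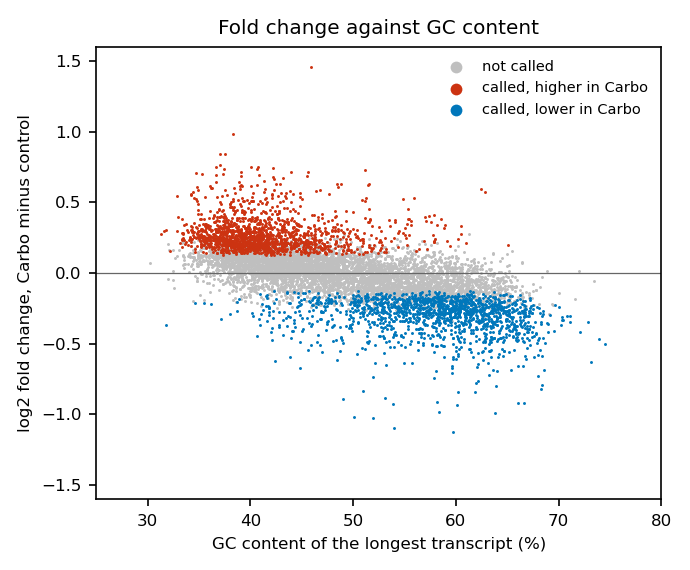
Log2 fold change of Carbo over control (y axis) against the GC content of the longest transcript in percent (x axis) for 8284 genes with at least 20 CPM; red points rose, blue points fell and grey points were not called. The cloud tilts downward with GC content (correlation -0.64), with red points mostly under 50% and blue points mostly over 50%.

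Of the 199 called genes named above, 121 kept the call in all of 4 refits, 1 for each dropped pair and 1 with GC and length trends taken out. In DESeq2 with the block 155 of the 197 with an adjusted p were called, and with the block over all 9 libraries, or without the block in the 6, 0 were. Without pair 1, 4 lost the call (AJUBA, MSH6, PLAU and RPS6). Without pair 3, 26 lost it (ADAMTS15, ADAMTS7, ATP7B, BIRC2, CASP8, CDH2, CDK4, CLDN1, CLDN4, CRB3, HBEGF, HSPA9, IER2, KRT18, LRRC8D, MCM6, MCM7, ME1, MLH3, MSH6, MT2A, NEIL2, PDIA4, TCF3, VIM and VRK1). Without pair 2, 63 lost it (AARS, ABCC3, ADAMTS13, ADAMTS15, ADAMTS17, ADAMTS7, AJUBA, ANAPC11, ATF4, ATP7B, AXL, BIRC2, CASP8, CDH2, CDK2, CEP131, CEP164, CETN2, CHEK1, CKS1B, CLDN1, CLDN4, CRB3, DSG2, EGR1, EPRS, ETV4, FAAP100, FOXM1, HBEGF, HSPA9, IER2, IMPDH1, KRT18, LRRC8D, MAD1L1, MCM7, ME1, MLH3, MSH6, MT2A, NEIL2, NEIL3, PAXX, PDIA4, PLAU, PLK2, POLR2A, PRKDC, RARS, RPS6, SMAD7, SOS2, TCF3, TGFB1, TIMP2, TUG1, UBE2C, VARS, VIM, VRK1, YARS and ZEB1). After the GC and length correction, 60 lost it (AARS, ABCC3, ADAMTS13, ADAMTS15, ADAMTS17, ADAMTS7, AJUBA, ANAPC11, ANGPTL4, ATF4, ATP7B, BAX, BBC3, BIRC2, CASP8, CDH2, CDK4, CEP131, CEP170B, CETN2, CHEK1, CLDN1, CLDN4, COL18A1, CRB3, DSG2, EPRS, ETV4, FAAP100, FTL, HRAS, IER2, IMPDH1, JUNB, KRT18, LRRC8D, MAD1L1, MCM6, ME1, MLH3, MSH6, NEIL2, PAXX, PKP3, PLAU, POLR2K, RARS, RELB, RPS6, RXRA, SMAD7, SOS2, TCF3, TGFB1, TPR, TUG1, VARS, VRK1, YARS and ZEB1). Of 156 named genes checked against GENCODE 29, 75 overlap a gene on the opposite strand and 37 share a name with an annotated pseudogene, and as no source used here tells whether counting used strand, reads of such partners cannot be told apart.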

How the data were processed

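Poly(A) RNA of 6 SKOV3 libraries was sequenced; per the labels' protocols, TRIzol extraction and an NEBNext Ultra RNA kit were used. HTSeq 0.11.2, HISAT2, DESeq2 1.26.0 and GRCh38 are named per the submitters' processing notes; the strand setting is not given in the sources used here. The read counts per gene and the FPKM values were deposited by the authors in one table. Genes with at least 10 counts in 3 libraries were tested on the counts with edgeR 4.0.16 (R 4.3.3; TMM scaling, quasi-likelihood test, replicate number as a block, 2 residual degrees of freedom), with Benjamini-Hochberg adjustment over 16251 genes. CPM are counts scaled to the TMM-adjusted library total.

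Same-numbered libraries were taken as pairs because the comparison was defined that way, and the labels share only the numbers. Their deviations correlated over 0.1 in all 3 pairs (0.82, 0.57 and 0.75), and each library correlated best with its own number. Control 3 with Carbo 2 (0.40) and control 2 with Carbo 3 (0.25) were also over 0.1. These correlations come from the libraries that were tested, so they are no separate support for the block. Alternatives used DESeq2 1.42.0, limma 3.58.1 with voom or on log2 FPKM with a pseudocount of 0.1 or 1, other scalings and filters, all 9 libraries, left-out pairs or libraries, and offsets that take GC and length trends (GENCODE 29) out of every library. Named genes were up to 15 in each direction by size (mean of at least 5 CPM), 10 by p with a log2 change of at least 0.5, up to 4 called genes in each of 60 lists by p, a fixed set of EMT, ERK and arrest genes, and 10 by the replicate test. Other genes with values were chosen after their values were seen. The members and lists were chosen with earlier results of these data known. Promoters come from RefSeq (GRCh38.p14), matched by symbol for 10935 genes, with only the first entry of each symbol kept. Some genes named by this rule are not reported here.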

Additional observations from a re-analysis of the deposited data

How the results depend on the processing

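The number of called genes, 3760 with the replicate block (1852 higher, 1908 lower), fell to 0 in edgeR's test without the replicate block (2789 at an unadjusted p under 0.05), to 0 with the block over all 9 libraries (3031 at an unadjusted p under 0.05) and to 0 without it over all 9. DESeq2 with the block called 1937 (937 higher, 1000 lower), limma on log2(FPKM + 0.1) 1904 (820 and 1084), limma on log2(FPKM + 1) 1808 (757 and 1051), and the fit with the replicate block and the GC and length trends removed 1743 (874 and 869). The cause of these drops was not tested. Leaving out a pair gave 1324 to 4299 calls (575 to 2088 higher, 749 to 2211 lower), with the lowest value without pair 2. Leaving out a library without the block gave 0 to 1502 (0 to 682 higher, 0 to 820 lower), with 1502 without Carbo 1 and 0 otherwise. Other scalings and filters, voom and robust estimation gave 3748 to 3846. Genes called for the replicate number ranged from 601 (without replicate 1) to 3032 over left-out numbers, against 3184.

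Some uncalled or small log2 fold changes changed sign. Over left-out pairs or libraries these ran for COL1A1 from -0.38 to 0.43 (also -0.26 and -0.19), DUSP6 from -0.044 to 0.11 (also -0.028), FN1 from -0.12 to 0.27 (also -0.026 and -0.014), GSTP1 from -0.15 to 0.018 (also 0.016 and 0.0012), MAPK3 from -0.15 to 0.053 (also 0.000102 and 0.0028), SLC31A1 from -0.15 to 0.011, SNAI1 from -0.56 to 0.33 (also 0.093 and 0.30 and 0.097), SPRY4 from -0.18 to 0.017 (also 0.012), TGFBI from -0.23 to 0.41 (also -0.10 and -0.091). With the GC and length trends removed they were DUSP6 (-6.8e-05), FAAP100 (0.052), FN1 (-0.036), GSTP1 (0.20), MAPK3 (0.14), PAXX (0.025), SNAI1 (0.12), VARS (0.056), ZEB2 (-0.099). The causes were not tested. At 14360199 to 15533668 counts a library, 4 of 1330 genes under 1 CPM were called higher and 18 lower, and at 1 to 5 CPM 39 and 103 of 3353.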
